A study of Homo sapiens with 16 samples.

Results

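A set of 9 enzymes that turn squalene into cholesterol was described: SQLE, LSS, CYP51A1, TM7SF2, MSMO1, NSDHL, EBP, SC5D and DHCR7. They were chosen by name, from their place in the pathway, with earlier results of these data known. They make up 9 of the 54127 gene identifiers that were counted. CYP51A1, the sterol 14-demethylase, is the human relative of the fungal enzyme that azole antifungals such as itraconazole are designed to block. In the pathway 2 of the other enzymes stand before it and 6 after it. HT55 and SW948 are established lines of human colorectal cancer. They were grown attached to plastic in medium with bovine serum and given itraconazole at 5 µM or its solvent DMSO, and RNA was sequenced at day 6. There were 4 libraries in each of the 4 groups, which the study's methods describe as biological replicates. Each line is a single model, and 1 dose and 1 time point were measured.

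Cholesterol synthesis after squalene is a chain of reactions in the endoplasmic reticulum. SQLE adds oxygen to squalene and LSS folds the product into lanosterol, the first sterol. CYP51A1 then removes the methyl group at carbon 14, TM7SF2 reduces the double bond that this leaves, and MSMO1 and NSDHL take off the methyl groups at carbon 4. EBP shifts a double bond in the ring, SC5D adds another, and DHCR7 carries out the last reduction to cholesterol. When sterols in this membrane fall, SCAP and the factor SREBP-2 bound to it are freed from INSIG proteins. SREBP-2 then goes on to raise transcription of many of these genes. These sentences are background, and sterols were not measured here.

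All 9 are protein-coding genes with 1 identifier each in the count files. On GRCh37 they lie on 6 chromosomes, with LSS (ENSG00000160285) at chr21:47608055-47648738 on the minus strand, CYP51A1 (ENSG00000001630) at chr7:91714301-91764117 on the minus strand, TM7SF2 (ENSG00000149809) at chr11:64879317-64883856 on the plus strand, MSMO1 (ENSG00000052802) at chr4:166248819-166264316 on the plus strand, NSDHL (ENSG00000147383) at chrX:151999511-152038273 on the plus strand, EBP (ENSG00000147155) at chrX:48380187-48387104 on the plus strand, SC5D (ENSG00000109929) at chr11:121163390-121184119 on the plus strand and DHCR7 (ENSG00000172893) at chr11:71139239-71163914 on the minus strand. SQLE (ENSG00000104549) lies on chromosome 8.

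Gene counts per library ran from 8269406 to 11110814. All 8 markers of colon epithelium on a fixed list were detected in each group, with a summed level (CPM, counts per 1000000 gene counts scaled by TMM factors) of 8231 to 8516 with DMSO and 9629 to 10228 with itraconazole in HT55, and of 6034 to 6298 and 8183 to 10118 in SW948. In HT55 5 of the 8 were called higher and 3 did not pass (edgeR adjusted p under 0.05). In SW948 5 were called higher and 3 lower, namely CDX2, VIL1 and CDH1 (log2 fold change -0.88, -0.63 and -0.23). Of all tested genes, 27.5% were called higher in HT55, and 38.9% higher and 41.3% lower in SW948. The fibroblast gene COL3A1 had no count in any group and the endothelial gene CDH5 none in SW948. The fibroblast list of 5 genes summed to at least 0.212 CPM with DMSO and to 0.949 to 1.41 CPM with itraconazole in HT55, where the groups did not overlap, and to 2.23 to 3.97 and 9.6 to 12 CPM in SW948, where COL1A1 rose 3.15-fold (edgeR adjusted p = 9.01e-07). The 2 endothelial genes found stayed at or below 0.712 CPM. The immune list of 5 genes summed to 28.3 to 32.8 CPM with DMSO and 23.7 to 63.1 CPM with itraconazole in HT55, and to 312 to 366 and 204 to 232 CPM in SW948. Its T cell gene CD3E had no count in any group. PTPRC, also on this list, had none in HT55 with itraconazole and none in SW948 with either treatment. Of the 2 members that could be tested, LYZ rose 2.63-fold in HT55 and fell to 0.337-fold in SW948, and CD68 rose 5.24-fold in SW948 and did not pass in HT55. With DMSO the level of LYZ in SW948 was 372-fold that in HT55 (edgeR adjusted p = 1.92e-18). Mitochondrial genes held 2.11 to 2.19% of gene counts in HT55 with DMSO and 2.65 to 3.06% with itraconazole, and 1.06 to 1.48% and 2.05 to 2.97% in SW948. The part of these levels and shares in the results on the sterol enzymes was not tested. In bulk RNA of this kind, fewer cells of a type and less RNA per cell cannot be told apart.

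With itraconazole, RNA of 8 of the 9 enzymes rose in HT55 and 8 of 9 rose in SW948, and none fell (edgeR adjusted p under 0.05). In HT55 27.5% of all tested genes were called higher and 26.5% lower, and in SW948 38.9% and 41.3%. The median log2 fold change of the 9 enzymes was 0.78 in HT55 against -0.02 over 12133 tested genes, and 2.41 in SW948 against -0.02 over 12505. The largest change in each line was that of MSMO1, 3.80-fold in HT55 and 27.2-fold in SW948. TM7SF2, the reductase that follows CYP51A1, was the enzyme that passed the test in neither line. All treated libraries lay above all controls for 8 of the 9 enzymes in HT55, as they did for 25.0% of tested genes, and for 7 of 9 in SW948, as for 37.3% of tested genes.

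**Figure D1:**
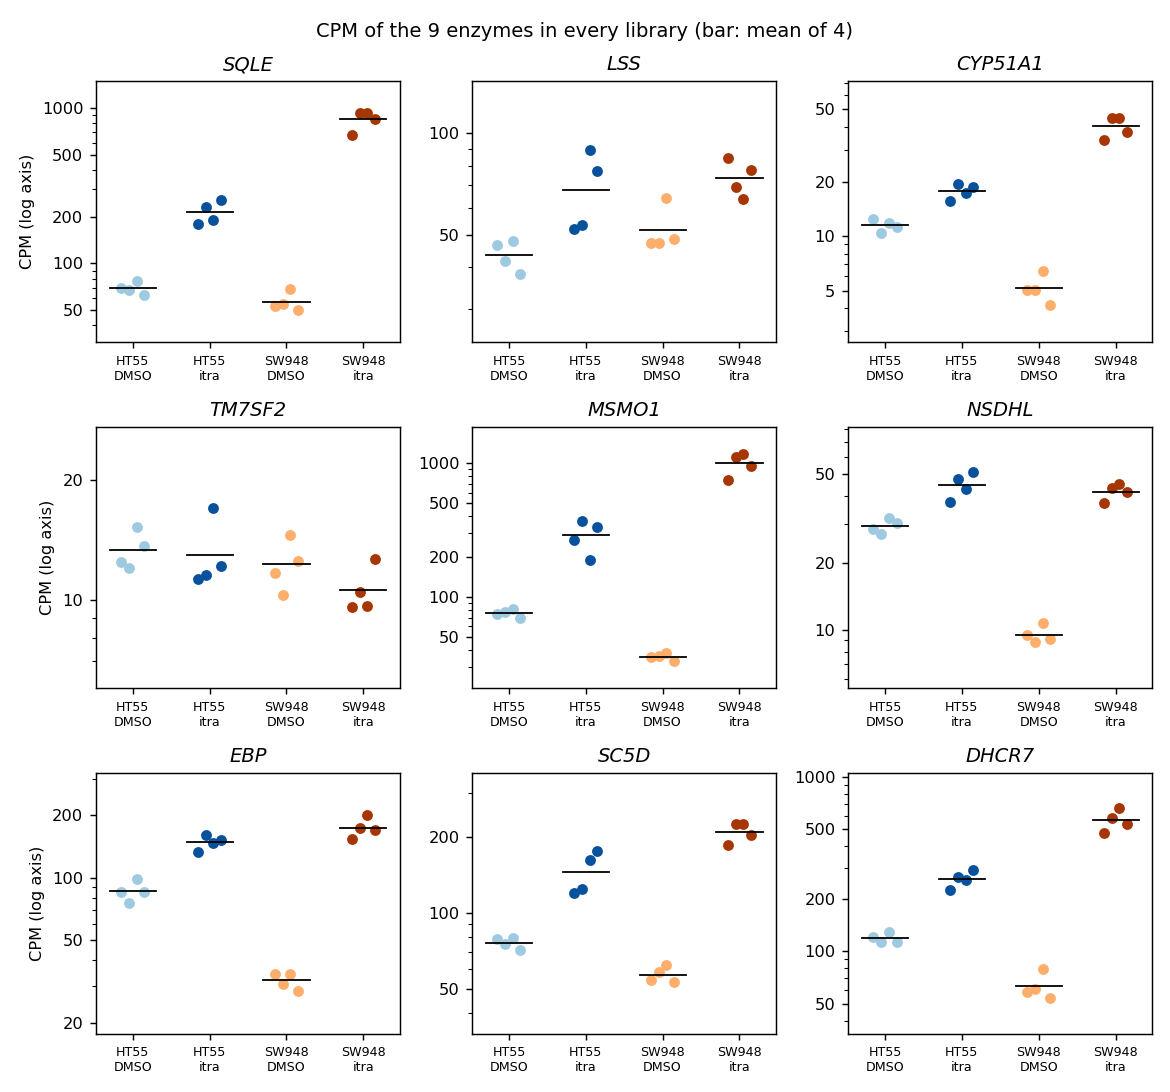
CPM of each of the 9 enzymes (vertical log axes with their own range per panel) in the 16 libraries, with 4 points per group from replicate 1 at the left to replicate 4 at the right and a bar at the group mean. In SW948 the 4 treated points stand clear above the 4 controls for every enzyme but LSS and TM7SF2, and MSMO1 rises from 33.3 to 38.1 CPM to between 747 and 1166 CPM.

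Upstream of CYP51A1, SQLE is the oxygen-using step that commits squalene to sterols. In HT55 it stood at 69.8, 67.7, 77.0 and 62.9 CPM in the DMSO libraries and at 180.3, 232, 189.9 and 256 CPM in the itraconazole libraries. In SW948 it stood at 53.3, 54.7, 68.5 and 49.9 CPM with DMSO and at 675, 929.7, 932 and 852 CPM with itraconazole. The groups were apart in both lines, and the lowest treated SW948 library was above every HT55 library. The log2 fold change was 1.62 ± 0.12 (SE, edgeR adjusted p = 5.37e-06) in HT55 and 3.87 ± 0.12 (SE, edgeR adjusted p = 2.29e-11) in SW948.

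LSS, the cyclase that makes lanosterol, behaved otherwise. In HT55 it measured 46.5, 41.7, 47.7 and 38.3 CPM with DMSO and 52.0, 53.4, 89.5 and 77.3 CPM with itraconazole. Treated replicates 3 and 4 were well above treated replicates 1 and 2, which lay close to the highest control. In SW948 it measured 47.3, 47.1, 64.1 and 48.4 CPM with DMSO and 84.4, 69.3, 63.9 and 77.6 CPM with itraconazole, so that the highest control reached the lowest treated library. The log2 fold change was 0.64 ± 0.17 (SE, edgeR adjusted p = 0.00879) in HT55 and 0.48 ± 0.11 (SE, edgeR adjusted p = 0.000896) in SW948. The SW948 call for LSS was lost when libraries were scaled by their plain totals, with a log2 fold change of 0.16 and an edgeR adjusted p of 0.268. Exons of LSS overlap 2 long noncoding RNAs on the other strand by 570 bp, and whether counting used strand is not stated in the sources used here.

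CYP51A1 itself was the least counted of the enzymes that rose. It stood at 12.4, 10.4, 11.9 and 11.3 CPM in HT55 with DMSO and at 15.5, 19.5, 17.4 and 18.6 CPM with itraconazole. In SW948 it stood at 5.05, 5.01, 6.42 and 4.16 CPM with DMSO, from 53 to 74 reads a library, and at 33.7, 44.8, 44.9 and 37.7 CPM with itraconazole. SW948 thus moved from the lower to the higher of both lines, and no treated library of a line overlapped its controls. The rise was 1.54-fold in HT55 and 7.63-fold in SW948, with an SE of 0.11 and 0.14 on the log2 scale and an edgeR adjusted p of 0.00104 and 3.69e-10. Of the 50-base windows of its canonical transcript, 20.1% also occur in transcripts of other genes, 17.8% in its own pseudogenes, and reads that align to several places were not counted. Reads from such windows are missing from its level. For the other 8 enzymes this share was at most 2.16%. Its exons also overlap those of AKAP9 by 108 bp and of CYP51A1-AS1 by 138 bp on the other strand.

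TM7SF2 and the nuclear envelope protein LBR both carry the C14 reductase activity that follows CYP51A1. TM7SF2 measured 12.4, 12.0, 15.3 and 13.6 CPM in HT55 with DMSO and 11.3, 11.6, 17.0 and 12.2 CPM with itraconazole. In SW948 it measured 11.7, 10.3, 14.6 and 12.6 CPM with DMSO and 9.61, 10.4, 9.66 and 12.6 CPM with itraconazole. The groups overlapped in both lines, and the highest value in HT55 was that of treated replicate 3. The log2 difference was -0.03 ± 0.15 (SE, edgeR adjusted p = 0.869) in HT55 and -0.25 ± 0.13 (SE, edgeR adjusted p = 0.104) in SW948. On plain library totals, where the median of all tested genes moved to -0.35 in SW948, the SW948 difference of TM7SF2 was -0.58 with an edgeR adjusted p of 0.0021. It also passed as lower in SW948 without DMSO replicate 2 (-0.32) and without itraconazole replicate 4 (-0.34). LBR fell in both lines, by 0.26 ± 0.079 (SE, edgeR adjusted p = 0.0172) in HT55 and by 0.30 ± 0.069 (SE, edgeR adjusted p = 0.00132) in SW948 on the log2 scale.

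Of the C4 demethylation pair, MSMO1, the methyl oxidase, rose most and NSDHL, the decarboxylating dehydrogenase, rose least among the downstream genes in HT55 that passed the test. MSMO1 stood at 75.0, 77.6, 80.5 and 69.3 CPM in HT55 with DMSO and at 265, 367, 189 and 332 CPM with itraconazole. In SW948 it stood at 35.2, 36.4, 38.1 and 33.3 CPM with DMSO and at 747, 1116, 1166 and 948 CPM with itraconazole. SW948 thus had less than the HT55 controls before treatment and more than every HT55 library after it. The log2 fold change was 1.92 ± 0.17 (SE, edgeR adjusted p = 1.83e-05) in HT55, where treated replicate 3 was lowest, and 4.77 ± 0.13 (SE, edgeR adjusted p = 1.10e-11) in SW948. By size it ranked 157 of 12133 tested genes in HT55 and 27 of 12505 in SW948. NSDHL went from 27.0 to 31.8 CPM with DMSO to between 37.4 and 51.0 CPM with itraconazole in HT55, and from 8.79 to 10.8 CPM to between 37.1 and 45.3 CPM in SW948. Its log2 fold change was 0.61 ± 0.10 (SE, edgeR adjusted p = 0.000817) in HT55 and 2.10 ± 0.099 (SE, edgeR adjusted p = 3.40e-10) in SW948.

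The last 3 steps rose in both lines. EBP, the isomerase, measured 75.8 to 98.7 CPM with DMSO and 134 to 160.1 CPM with itraconazole in HT55, and 28.3 to 34.4 CPM and 153 to 201 CPM in SW948, a log2 fold change of 0.78 ± 0.088 and 2.41 ± 0.094 (SE). For EBP and SC5D the edgeR adjusted p was at most 0.000144 in HT55 and 1.50e-10 in SW948. SC5D, the C5 desaturase, measured 78.4, 75.6, 79.3 and 71.5 CPM with DMSO and 119.9, 124, 163 and 176 CPM with itraconazole in HT55, where treated replicates 3 and 4 were again the high ones. In SW948 SC5D went from 53.0 to 62.0 CPM to between 186 and 226 CPM, and its log2 fold change was 0.93 ± 0.12 in HT55 and 1.86 ± 0.079 in SW948 (SE). DHCR7, the final reductase, stood at 120.2, 113, 129 and 113 CPM with DMSO and at 224, 265, 258 and 293 CPM with itraconazole in HT55. In SW948 DHCR7 stood at 58.3, 60.4, 78.9 and 53.7 CPM with DMSO and at 479, 578, 662 and 537 CPM with itraconazole. Its log2 fold change was 1.12 ± 0.087 (SE, edgeR adjusted p = 8.21e-06) in HT55 and 3.14 ± 0.12 (SE, edgeR adjusted p = 8.74e-11) in SW948. Leaving out any 1 library changed no call among the 8 rising enzymes in either line.

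**Figure D2:**
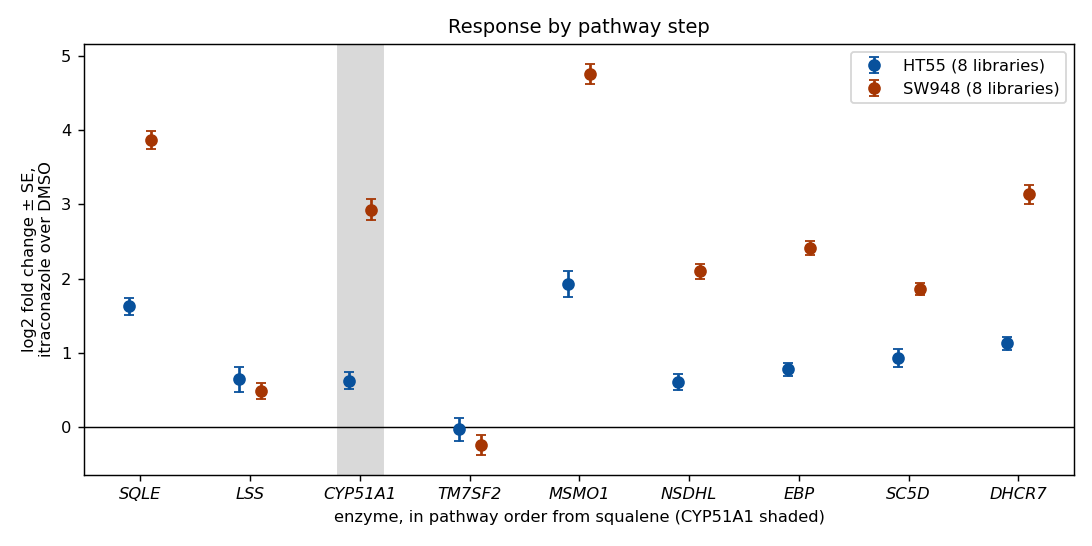
Log2 fold change of itraconazole over DMSO (vertical axis, ± SE from edgeR, 8 libraries a line) for the 9 enzymes in pathway order, with HT55 in blue, SW948 in brown and CYP51A1 shaded. SQLE and MSMO1 are above CYP51A1 in both lines, and DHCR7 is above it in HT55, while in SW948 their SE bars overlap. LSS lies near CYP51A1 in HT55 but far under it in SW948, and TM7SF2 lies near 0 in both.

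Libraries of a group tended to be high or low for several enzymes together. In HT55 with DMSO, replicate 3 was the highest of its group for 8 of the 9 enzymes, and in SW948 with DMSO replicate 3 was likewise the highest for 8. Replicate 1 was the lowest of the treated group for 8 of the 9 enzymes in HT55 and for 8 in SW948. The same count over all tested genes was not made. Treated HT55 replicates 3 and 4, high for LSS and SC5D, had 24.1% and 24.8% of their reads set aside as aligning to several places, against 27.3% and 27.9% in replicates 1 and 2. In SW948 this share was 22.0 to 23.6% with DMSO and 25.3 to 26.2% with itraconazole. The part of these library features in the changes was not tested.

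The rise was larger in SW948 than in HT55 for 7 of the 9 enzymes by the interaction test of edgeR on all 16 libraries, which called 24.8% of tested genes in that direction. The difference of the 2 log2 fold changes was 2.87 ± 0.23 for MSMO1, 2.34 ± 0.19 for CYP51A1, 2.28 ± 0.18 for SQLE and 2.04 ± 0.16 for DHCR7 (SE). It was smaller for EBP at 1.67 ± 0.13, NSDHL at 1.52 ± 0.15 and SC5D at 0.95 ± 0.15 (SE), each with an edgeR adjusted p of at most 2.74e-05. The 2 enzymes that did not pass were LSS at -0.13 ± 0.21 (SE, edgeR adjusted p = 0.63) and TM7SF2 at -0.19 ± 0.21 (SE, edgeR adjusted p = 0.47).

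The lines differed before treatment in the opposite direction. With DMSO, 7 of the 9 enzymes were lower in SW948 than in HT55 and none was higher, while 37.7% of tested genes were lower there. NSDHL was lowest relative to HT55 at 0.326-fold, followed by EBP at 0.371-fold, CYP51A1 at 0.448-fold, MSMO1 at 0.473-fold and DHCR7 at 0.529-fold (edgeR adjusted p of at most 7.06e-06 for each). SC5D was at 0.746-fold (edgeR adjusted p = 0.00147) and SQLE at 0.816-fold (edgeR adjusted p = 0.0425). On plain library totals neither SC5D nor SQLE passed, with edgeR adjusted p of 0.0771 and 0.453, and LSS was called higher in SW948 (log2 difference 0.44, edgeR adjusted p = 0.0274). The SQLE call was also lost on leaving out 1 library in 7 of 16 fits. With itraconazole the order turned: 6 of the 9 enzymes were higher in SW948 and none was lower, against 39.3% of tested genes higher. SQLE was 3.95-fold, MSMO1 3.45-fold, CYP51A1 2.26-fold, DHCR7 2.17-fold, SC5D 1.45-fold and EBP 1.18-fold the HT55 level. The EBP call was lost without treated HT55 replicate 1 (log2 difference 0.19) and without treated SW948 replicate 3 (0.16). TM7SF2, at -0.30 ± 0.15 with all libraries (SE, edgeR adjusted p = 0.0728), was called lower in SW948 without treated HT55 replicate 1 (-0.37) or 2 (-0.36) and without treated SW948 replicate 4 (-0.40). NSDHL, at -0.10 ± 0.097 on the log2 scale (SE, edgeR adjusted p = 0.352), did not pass the test between the treated lines.

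Levels of different enzymes were compared per length, as FPKM (reads per 1000 bases of exon per 1000000 gene counts). With DMSO, EBP was the highest at 48.8 ± 5.33 FPKM in HT55 and 18.1 ± 1.67 in SW948 (SD, n = 4), and CYP51A1 the lowest at 2.75 ± 0.21 and 1.24 ± 0.22. The HT55 order was EBP, MSMO1, DHCR7, SQLE, NSDHL, SC5D, LSS, TM7SF2 and CYP51A1, with overlaps between DHCR7 and SQLE and between SQLE and NSDHL. In SW948 with DMSO it was EBP, SQLE, MSMO1, DHCR7, LSS, SC5D, NSDHL, TM7SF2 and CYP51A1, with overlaps between SQLE and MSMO1, between DHCR7 and LSS, and between SC5D and NSDHL. With itraconazole MSMO1 was the highest, at 101 ± 27.6 FPKM in HT55, where it overlapped EBP, and at 349 ± 66.4 FPKM in SW948, where it overlapped none. TM7SF2 was then the lowest at 3.81 ± 0.79 and 3.11 ± 0.42 FPKM (SD, n = 4), overlapping CYP51A1 in HT55 only. The treated order in SW948 was MSMO1, SQLE, EBP, DHCR7, NSDHL, SC5D, LSS, CYP51A1 and TM7SF2, with overlaps between EBP and DHCR7, between NSDHL and SC5D, and between LSS and CYP51A1. In treated HT55, SQLE and DHCR7 came after EBP and overlapped, then NSDHL, then SC5D and LSS, which overlapped too. The span from the lowest to the highest enzyme went from 17.7-fold to 26.5-fold in HT55 and from 14.6-fold to 112-fold in SW948. With the length of the canonical transcript in place of all exons, which was tried after the data were seen, the spans were 21.1-fold and 23.4-fold in HT55 and 17.4-fold and 66.5-fold in SW948. By that length EBP, not MSMO1, was the highest in HT55 with itraconazole, and CYP51A1, not TM7SF2, the lowest. DHCR7 then stood above MSMO1 with DMSO, at 45.2 against 33.9 FPKM in HT55 and 23.9 against 16.1 FPKM in SW948. It also stood above SQLE in treated HT55 and in SW948 with DMSO, and above EBP in treated SW948 (215 against 155 FPKM). SC5D passed NSDHL in treated SW948, and TM7SF2 passed NSDHL in SW948 with DMSO. The order of these enzymes thus depends on the length used.

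**Figure D3:**
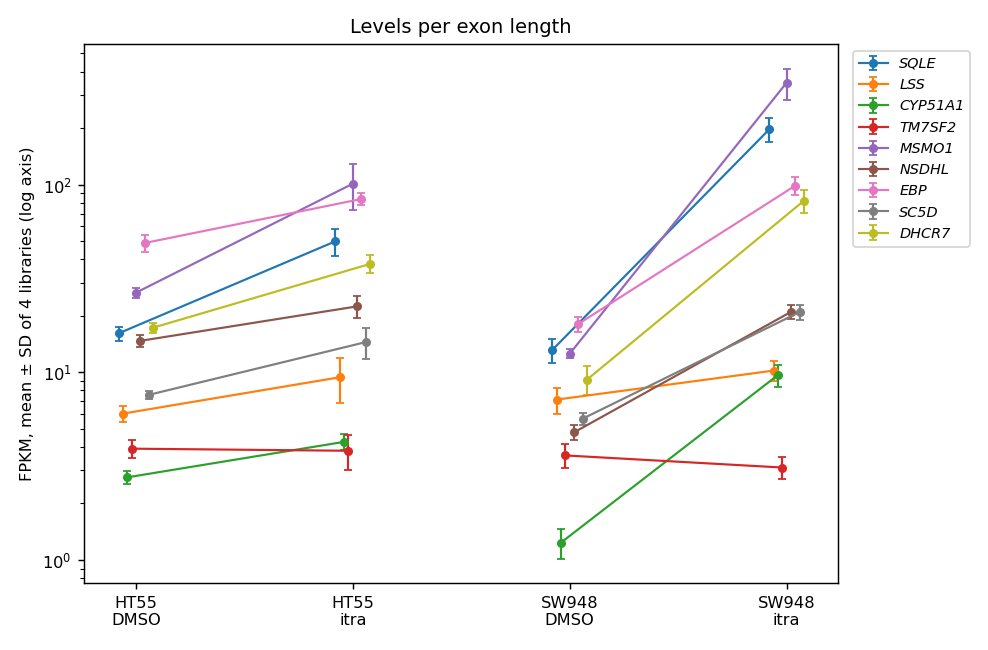
FPKM per exon length (vertical log axis, mean ± SD of 4 libraries) of the 9 enzymes, with a line from DMSO to itraconazole within each line. The lines fan out in SW948, where MSMO1 and SQLE end at 349 and 197 FPKM, while TM7SF2 stays between 3.11 and 3.92 FPKM in all 4 groups.

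Each enzyme was then set against CYP51A1 in the same library, as log2 of the ratio of CPM values, in which library scaling cancels but for a small prior count. In HT55, the ratio changed by -0.01 ± 0.15 for LSS, -0.02 ± 0.13 for NSDHL and 0.16 ± 0.11 for EBP (limma difference ± SE), none of which passed the test. SQLE gained 0.997 ± 0.12, MSMO1 1.27 ± 0.14 and DHCR7 0.50 ± 0.11 over CYP51A1, and the ratio of TM7SF2 fell by 0.67 ± 0.18. SC5D gained 0.29 ± 0.13 with a limma adjusted p of 0.0423, but its libraries overlapped and the two-sided exact permutation p was 0.0857. Limma called 5 of the 8 ratios in HT55, and 4 of 8 were fully apart between groups, the case in which the exact permutation p takes its smallest value of 0.0286. Of all tested genes, 76.8% were called and 68.6% were apart.

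In SW948, MSMO1 gained 1.84 ± 0.17 and SQLE 0.97 ± 0.17 over CYP51A1 on the log2 scale. Ratios fell by 0.49 ± 0.18 for EBP, by 0.82 ± 0.21 for NSDHL, by 1.05 ± 0.18 for SC5D, by 2.41 ± 0.18 for LSS and by 3.13 ± 0.23 for TM7SF2. DHCR7 changed least against CYP51A1, at 0.24 ± 0.17 (limma adjusted p = 0.168), although its treated and control libraries were apart (two-sided exact permutation p = 0.0286). All 8 ratios were apart in SW948 and limma called 7 of 8, against 98.1% of all tested genes apart and 98.6% called. These permutation p-values are not adjusted for the 16 ratios compared. All ratios of a line share the counting error of CYP51A1. In both lines MSMO1 and SQLE rose more than CYP51A1, and the ratio of TM7SF2 fell. The median change of the ratio over all tested genes was -0.64 in HT55 and -2.92 in SW948, near the change of TM7SF2. LSS, NSDHL and EBP rose less than CYP51A1 in SW948, while in HT55 their ratios did not pass the test. SC5D rose less than CYP51A1 in SW948 too, but its HT55 ratio gained by the limma test only. Whether the change in a ratio differed between lines was not tested.

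**Figure D4:**
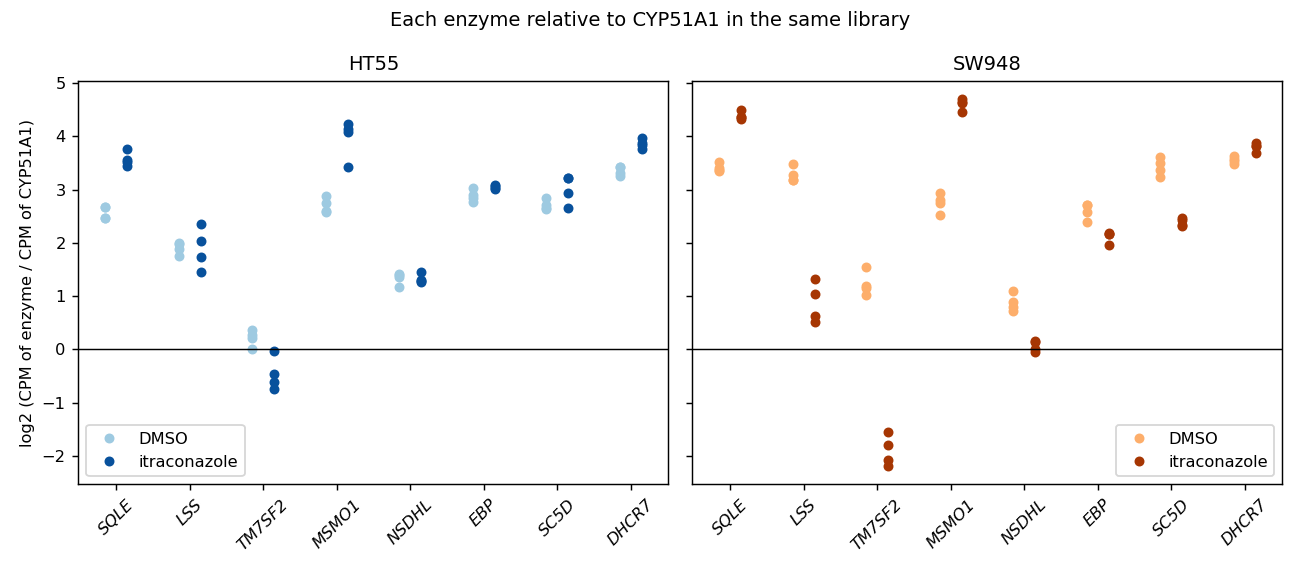
Log2 of the CPM of 8 enzymes over the CPM of CYP51A1 in the same library (vertical axis), for HT55 at the left and SW948 at the right, with 1 point per library, light for DMSO and dark for itraconazole. In SW948 every pair of groups is apart, TM7SF2 dropping from a mean of 1.22 to -1.91 and MSMO1 climbing from 2.76 to 4.61.

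DHCR7 was the enzyme whose pattern over the 16 libraries was most like that of CYP51A1. Likeness was the root mean square difference of log2 CPM, each gene centred on its mean, among 9208 genes, and the points share line and treatment. DHCR7 ranked 3 at 0.21, EBP 22 at 0.37, SC5D 32 at 0.41 and NSDHL 124 at 0.53, while SQLE ranked 350, MSMO1 1258, LSS 1733 and TM7SF2 4809. Genes outside the 9 enzymes near it were STARD4 at 0.20, TRIP10 at 0.23, HABP4 at 0.28 and ACAT2 at 0.29. ACAT2 makes acetoacetyl-CoA for the mevalonate pathway, and STARD4 carries cholesterol between membranes.

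Promoter sequence was examined because most of the enzymes rose together. RefSeq windows of GRCh38.p14, from 250 bases before to 50 after an annotated start, were found for 8 of the 9 enzymes, with 10 windows in all since SC5D and DHCR7 have 2 starts, and those of SC5D overlap. The CCAAT box, bound by the factor NF-Y that often works beside SREBP, was searched as CCAAT on both strands. It occurred in 8 of the 10 windows, against 34.6% of 35116 windows over all genes, and for 7 of the 8 enzymes, against 39.7% of 27305 genes. These genes were not matched to the enzymes by gene type or expression. Windows that held it had counts from 1 (LSS, TM7SF2, SC5D) to 5 (NSDHL, of which 2 overlap). CYP51A1 had none, as did the second start of DHCR7. The sterol response type motif TCACNCCAC occurred in none of the 10 windows and in 1.13% of all, and the E-box CACGTG occurred in 3 windows, those of LSS and SC5D, and in 7.26% of all. A match is a run of letters and not a measured binding site. The 200 bases before the start are shown for the enzyme that rose most, the enzyme most like CYP51A1, CYP51A1 itself, and the enzyme that did not pass in either line, with each CCAAT box in capitals (ATTGG where it lies on the other strand).
MSMO1 (chr4:165327469-165327668, plus strand): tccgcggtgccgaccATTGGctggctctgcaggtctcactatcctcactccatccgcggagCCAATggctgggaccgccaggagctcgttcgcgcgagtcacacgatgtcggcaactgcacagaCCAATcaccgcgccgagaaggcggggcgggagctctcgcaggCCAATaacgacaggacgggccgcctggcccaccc
DHCR7 (chr11:71448394-71448593, minus strand): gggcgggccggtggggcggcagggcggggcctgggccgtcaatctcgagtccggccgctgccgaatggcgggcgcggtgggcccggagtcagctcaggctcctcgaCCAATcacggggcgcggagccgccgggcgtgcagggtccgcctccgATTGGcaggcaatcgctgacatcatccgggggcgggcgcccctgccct
CYP51A1 (chr7:92134478-92134677, minus strand): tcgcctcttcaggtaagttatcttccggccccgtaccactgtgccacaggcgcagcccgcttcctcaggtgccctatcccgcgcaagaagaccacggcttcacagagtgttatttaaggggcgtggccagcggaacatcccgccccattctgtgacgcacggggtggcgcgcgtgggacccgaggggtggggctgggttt
TM7SF2 (chr11:65111672-65111871, plus strand): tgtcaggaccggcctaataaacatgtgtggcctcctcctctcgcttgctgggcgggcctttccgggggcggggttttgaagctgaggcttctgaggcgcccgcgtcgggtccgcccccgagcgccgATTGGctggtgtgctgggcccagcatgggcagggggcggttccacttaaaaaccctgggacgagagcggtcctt
MSMO1 has 4 CCAAT boxes in this stretch and DHCR7 has 2. TM7SF2 has 1 and CYP51A1 has none. The part of this box in the changes of these enzymes was not tested.

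The rest of the pathway was given by lists written from general knowledge. Of 5 other enzymes after squalene, 4 rose and 1, LBR, fell in each line, where 27.5% and 26.5% of all tested genes were called higher and lower in HT55 and 38.9% and 41.3% in SW948. The largest estimate was that of FAXDC2, a relative of MSMO1, at 1.66 ± 0.36 in HT55 and 2.65 ± 0.36 in SW948 (log2 ± SE), but FAXDC2 had only 7 to 13 reads in the HT55 controls and 2 to 7 in those of SW948. HSD17B7, the 3-ketosteroid reductase of C4 demethylation, came next at 0.67 ± 0.20 and 2.31 ± 0.14. Of 10 genes listed from acetyl-CoA to squalene, 1 of which (GGPS1) lies on a side branch, 8 rose, 1 fell and 1 did not pass in each line. The largest rise was that of IDI1, the isopentenyl diphosphate isomerase, in HT55 (1.66 ± 0.15) and of HMGCS1, a synthase of the mevalonate pathway, in SW948 (3.94 ± 0.10), and GGPS1, which makes the prenyl donor for protein modification, was the one that did not pass in either line (0.12 ± 0.078 and 0.08 ± 0.076). PMVK, a mevalonate pathway kinase, was the one that fell, by 0.91 ± 0.12 in HT55, and in SW948 it fell by 1.68 ± 0.10. PMVK and the genes of the next lists that fell are named after their values were seen.

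CYP51A1 and SQLE take electrons from POR, and MSMO1 and SC5D take theirs through cytochrome b5. POR rose by 0.85 ± 0.089 in HT55 and 1.25 ± 0.073 in SW948 (log2 ± SE), the largest change on a list of 5 electron donors and partners. Of this list 3 rose and 2 did not pass in HT55, and 3 rose, 1 (CYB5A) fell and 1 did not pass in SW948, beside 27.5% of all tested genes higher in HT55 and 38.9% higher and 41.3% lower in SW948. Of 8 genes of SREBP control and targets, 5 were called higher in HT55 and 1, SREBF1, lower, while SW948 had 4 higher and 4 lower, namely SCAP, INSIG2, MBTPS1 and MBTPS2. The SW948 counts are near the 38.9% and 41.3% of all tested genes called higher and lower. INSIG1, which holds SREBP in the endoplasmic reticulum and is itself an SREBP target, had the largest change of this list in both lines, at 1.83 ± 0.13 in HT55 and 6.18 ± 0.22 in SW948 (log2 ± SE). The list's smallest change was that of MBTPS1, a protease that cuts SREBP, in HT55 (0.13 ± 0.053, edgeR adjusted p = 0.0557) and of INSIG2 in SW948 (-0.18 ± 0.071, edgeR adjusted p = 0.0302).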

How the data were processed

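RNA from 16 cultures was made into TruSeq libraries and sequenced. Per the labels, the submitters' processing notes name TopHat, HTSeq and DESeq with the build hg19. Versions, the annotation release and the strand setting are not given in the sources used here. The authors deposited raw read counts per gene, which were used as deposited. The 5 rows of totals outside genes were left out, the largest being reads aligned to several places (22.0 to 27.9% of reads), so genes with near-identical copies lose reads.

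Each line was tested on its 8 libraries with the edgeR 4.0.16 quasi-likelihood test (R 4.3.3), TMM scaling, filterByExpr and Benjamini-Hochberg adjustment over all tested genes, at a threshold of 0.05. The interaction of line and treatment and the contrasts between lines used 16 libraries. SEs were derived from the fold change and its F statistic. All 9 enzymes passed the filter in every fit. Ratios to CYP51A1 were tested with limma 3.58.1 on log2 CPM with a prior count of 2, and with a two-sided exact permutation test over 70 assignments, added after the data were seen. CPM values shown used TMM factors over 16 libraries, and FPKM used exon lengths of GENCODE on GRCh37. The scripts were tested on simulated data.

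The enzymes, lists and named genes were chosen with earlier results of these data known. All 9 enzymes were named, with the gene of largest and of smallest absolute change in each list and line, and the 5 genes nearest CYP51A1, of which 1 is not reported here. Marker lists covered colon epithelium, fibroblast, immune and endothelial cells.

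Replicates of a group differed by more than counting noise. The chi-square per degree of freedom ran from 1.43 to 2.34 with DMSO and from 4.88 to 40.5 with itraconazole in HT55. In SW948 it ran from 2.45 to 4.85 and from 3.76 to 21.5. The largest value was that between HT55 itraconazole replicates 2 and 3. Without this replicate 3, 7910 genes were called in HT55, against 6553 with all libraries. Intervals cover the spread between these samples. Alternatives were DESeq2 1.42.0 size factors and Wald test, plain library totals, no filter on low counts, a replicate block, 1 fit on 16 libraries, a prior count of 0.5, leaving out each library, and canonical transcript lengths.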

Additional observations from a re-analysis of the deposited data

Results flagged for a closer look

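Of 36 groups of 4 libraries examined, 1 for each enzyme and group, 2 held a library whose gap to its nearest neighbour was too wide for the group's range by Dixon's limit, and chance alone gives about 1 in 20 groups, or 1.8 here. LSS stood out in SW948 DMSO replicate 3, at 64.1 CPM with a gap of 0.921 of the range. TM7SF2 stood out in HT55 itraconazole replicate 3, at 17.0 CPM with a gap of 0.845 of the range. Without SW948 DMSO replicate 3 the LSS log2 fold change in SW948 was 0.59 (edgeR adjusted p = 8.95e-05), and without HT55 itraconazole replicate 3 the TM7SF2 difference in HT55 was -0.18 (edgeR adjusted p = 0.195).

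Effects that differed between lines by the interaction test of edgeR, as SW948 minus HT55 in log2 fold change, were those of SQLE (2.28), CYP51A1 (2.34), MSMO1 (2.87), NSDHL (1.52), EBP (1.67), SC5D (0.95) and DHCR7 (2.04).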

How the results depend on the processing

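Of 1011 values of the 9 enzymes under an alternative, 970 kept their direction and side of the threshold, 19 no longer passed, 9 newly passed and 13 changed sign. Those that changed sign were near 0 and not called. Without 1 library, TM7SF2 in HT55 ran from -0.18 to 0.0467 and turned without DMSO replicate 3 and without itraconazole replicates 1, 2 and 4. The LSS interaction ran from -0.25 to 0.0257, the latter without HT55 itraconazole replicate 3, and TM7SF2 between lines with DMSO turned to 0.0796 on plain library totals. The HT55 ratio of LSS ran from -0.16 to 0.14, turning in 4 of 8 such fits, and that of NSDHL from -0.0719 to 0.00522, turning in 3. Without 1 library, the enzymes called were 8 of 9 in every HT55 fit, 8 to 9 in SW948, 7 in the interaction, 6 to 7 and 5 to 7 between lines with DMSO and with itraconazole, and 4 to 5 and 7 of 8 ratios in HT55 and SW948. The genes called as changed against CYP51A1 in SW948 went from 12325 to 23455 with no filter on low counts, with more genes tested.

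On plain library totals the median log2 fold change of all genes moved to -0.18 in HT55 and -0.35 in SW948, and to 0.20 between lines with DMSO, and calls split into 2280 higher and 4709 lower in HT55 and 3147 and 6826 in SW948, against 3340 and 3213, and 4865 and 5165, with TMM. Same-numbered libraries correlated at -0.03 to 0.12, and numbers were not taken as pairs in the main fits. The highest values were those of number 3, at 0.12 in HT55 and 0.10 in SW948. Their mean correlation with other numbers was -0.05 and -0.04. With a replicate block, 6300 genes were called in HT55, 9973 in SW948 and 7036 in the interaction, and of the enzymes only SC5D lost a call, in its HT55 ratio (0.29, limma adjusted p = 0.0983). Of the 9 enzymes, CYP51A1 in SW948 controls had the fewest reads, 53 to 74 a library.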

Other observations

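A long noncoding RNA without a symbol, ENSG00000254682, lies within DHCR7 on the opposite strand (GRCh37, chr11:71159608-71163203) and shares none of its exons. It is named after its values were seen. Its level was 6.97 ± 0.68 CPM in HT55 with DMSO and 9.35 ± 1.14 with itraconazole, and 3.06 ± 0.36 and 27.8 ± 3.20 CPM in SW948 (SD, n = 4). Treatment changed it by 0.41 ± 0.14 on the log2 scale (SE, edgeR adjusted p = 0.0277) in HT55, where DHCR7 itself changed by 1.12 ± 0.087. In SW948 it changed by 3.14 ± 0.13 (SE, edgeR adjusted p = 1.45e-10), and DHCR7 by 3.14 ± 0.12. Without a stated strand setting, its reads and unspliced DHCR7 reads cannot be told apart.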
